A study of Oryza sativa with 18 samples.

Results

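The genes described here are a run of neighbours on rice chromosome 8. They were taken as the probe sets that the platform annotation maps to exactly 1 gene between LOC4344827 and LOC4345200, without the germin-like genes OsGER2, OsGER6 and GLP2 (3 genes, 4 probe sets). The segment holds 216 of the 22436 such probe sets and 171 of 17905 genes. In the gene order of the RefSeq table the members follow each other along chromosome 8. The segment was chosen by the differences in signal between the 2 lines on these same arrays, so those differences are described below and not tested.

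The arrays measured RNA of rice leaf sheath at the four-leaf stage in 6 groups of 3 biological replicates. The first line, NIL-BPH9, is labelled resistant to the brown planthopper (BPH), and its name marks it as near-isogenic for the resistance gene BPH9. The second line, 9311, is an indica variety labelled susceptible. Each was sampled at 0 h without planthoppers, and after 3 h and 6 h with them. Uninfested plants at 3 h and 6 h were not analysed here, so infestation and time of day change together. The breeding of NIL-BPH9, its donor and its backcrosses were not known here.

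A near-isogenic line is made by crossing a donor to a recurrent parent and backcrossing repeatedly while selecting the wanted locus. Around that locus, and sometimes elsewhere, stretches of donor chromosome remain, and neighbouring genes in such a stretch all carry donor alleles. BPH9 itself lies on chromosome 12, not on chromosome 8. On a short-oligonucleotide array, a different allele can change a signal in 2 ways: by a different amount of transcript, or by mismatches between the transcript and probes designed on another variety. One probe set cannot tell these apart, and in bulk tissue fewer cells of a type cannot be told apart from less RNA per cell.

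Values are log2 signals from the MAS5 algorithm, and array medians lay between 5.18 and 5.52. Testing was limited to probe sets that reached the median of the array on 3 or more arrays. Of the members, 181 probe sets of 152 genes were tested. The other 35 probe sets were low, and 26 of them were under the median on every array. Of the tested members, 5 passed with no 9311 array at or above the median, and 0 passed with no NIL-BPH9 array there, so those 5 had to be higher in NIL-BPH9. The measured green-tissue markers were above the median on all 18 arrays. They ran from the chlorophyll a/b binding gene LOC4324599, between 15.2 and 15.4, to the dimmer PPDKB, between 9.70 and 10.6. Of 3 phloem markers, RPP13-1 and RPP16 were above the median on 18 of 18 arrays and RPP17 on 7. Of the seed storage genes, GLUA1 was low, but GLUA2 (8.54 to 9.40) and GLB1 (11.2 to 11.7) were above the median on all 18 arrays in leaf sheath, as was the anther marker OsC4 (5.87 to 6.87). The part of these markers in the results was not tested. Correlations between arrays over all rice probe sets ran from 0.928 to 0.939 within groups and from 0.920 to 0.934 between groups.

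The 3 NIL-BPH9 arrays at 0 h stood apart on the segment and also beyond it, which bears on every comparison that uses them. On the first principal component of all tested probe sets, the main axis of spread between arrays, they lay at 7.9 to 16.2. The 9311 arrays lay at -51.8 to -29.7 there, and the later NIL-BPH9 arrays at 44.2 to 59.1. A member was called separated when the 3 arrays of NIL-BPH9 did not overlap the 3 arrays of 9311. The effect is plainest in LOC4344881, a gene with no name in the RefSeq table. Its NIL-BPH9 signals were 7.77, 7.72 and 7.88 at 0 h, 0.66 to 1.95 at 3 h, and 0.84, 0 and 0 at 6 h, against 7.92 to 8.50 on the 9 arrays of 9311. NIL-BPH9 was thus close to 9311 before infestation and far below it afterwards.

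LOC4345104 had 10.33, 10.37 and 10.26 in NIL-BPH9 at 0 h, 8.55, 8.21 and 8.24 at 3 h, and 7.91, 8.23 and 7.98 at 6 h, against 10.71 to 11.14 in 9311. LOC4344895 had 8.39, 7.83 and 7.84 in NIL-BPH9 at 0 h, 6.62, 6.13 and 6.31 at 3 h, and 6.46, 6.27 and 6.18 at 6 h, against 8.82 to 9.40 in 9311. In both genes the NIL-BPH9 arrays at 0 h lay between the later NIL-BPH9 arrays and 9311, and overlapped neither. The same held in the other direction for LOC4344890, with 7.86, 8.05 and 8.01 in NIL-BPH9 at 0 h, 9.54, 9.37 and 9.49 at 3 h, and 8.94, 9.04 and 8.99 at 6 h, against 2.48 to 6.06 in 9311.

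**Figure D1:**
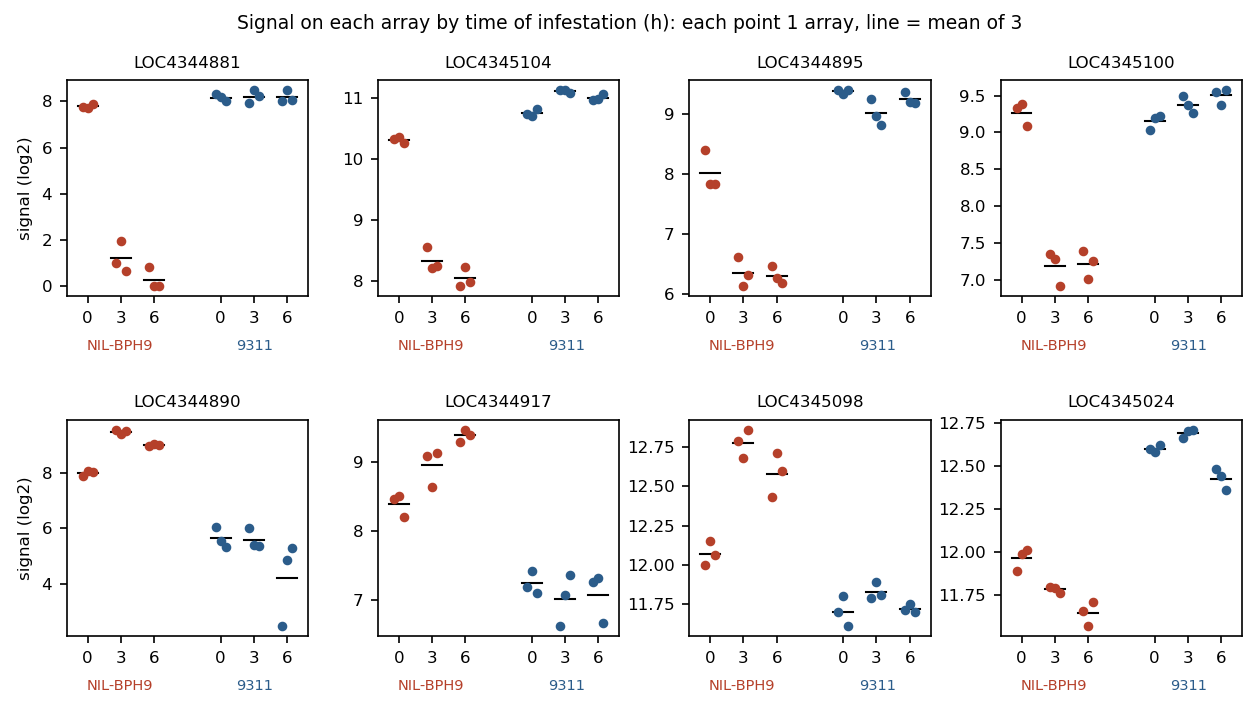
Log2 signal (y axis) of 8 segment genes on each array, by hours of infestation (x axis), NIL-BPH9 left and 9311 right; each point is 1 array and each line a mean of 3. In LOC4344881, LOC4345104, LOC4344895 and LOC4345100 NIL-BPH9 is lower at 3 h and 6 h than at 0 h, in LOC4344890, LOC4344917 and LOC4345098 it is higher, and the y axes differ between panels and do not start at 0.

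To put this on 1 scale, the NIL-BPH9 signal at 0 h was given a position, with 0 at the mean of NIL-BPH9 at 3 h and 6 h and 1 at the mean of the 9 arrays of 9311. Signals were taken on the linear scale, over genes separated in 1 direction at 3 h and 6 h with a mean line difference of at least 1 (log2) there. The 22 such segment genes, 10 higher and 12 lower in NIL-BPH9, had a median position of 0.548 (quartiles 0.439 and 0.796), and 13 of them lay between 0.25 and 0.75. By array, the medians were 0.621, 0.603 and 0.545, so all 3 replicates at 0 h stood in between. The size of the line difference in these genes had a median of 0.85 at 0 h, 2.40 at 3 h and 2.33 at 6 h, and in 20 of the 22 it was smaller at 0 h than at 3 h. The exceptions were LOC4344922 and LOC4344999. Choosing genes by their differences at 3 h and 6 h favours a smaller difference at 0 h, here and in the genes compared below. Among the 10 higher genes, LOC4344829, LOC4344914 and LOC4345108 had no 9311 array at the median. The 9311 end of their scale was therefore near background, and their positions support nothing. The medians and counts given here still include these 3 genes. The 10 higher genes had a median position of 0.49 and the 12 lower genes 0.70.

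Genes of a distal run of chromosome 12, toward the arm's end, looked different on the same arrays. The 24 genes there that met the same criteria had a median position of 0.0361, with median line differences of 1.89, 2.15 and 2.03 at 0, 3 and 6 h. By that median their NIL-BPH9 arrays at 0 h stood with the later NIL-BPH9 arrays, but in 17 of 24 the difference was smaller at 0 h than at 3 h. The 13 genes that met the criteria among those following the segment on chromosome 8 had a median position of 0.694, with median line differences of 0.84, 2.12 and 1.86 at 0, 3 and 6 h, and in 12 of 13 the difference was smaller at 0 h than at 3 h. All 152 other genes of the array that met them, 137 higher and 15 lower in NIL-BPH9, had a median of 0.813 (quartiles 0.334 and 1.02), with median line differences of 0.73, 1.58 and 1.35 at 0, 3 and 6 h, and 120 of 152 smaller at 0 h than at 3 h. A smaller difference at 0 h was thus not limited to the segment. The segment median thus lay above the upper quartile of the chromosome 12 run (0.204) and between the quartiles of the other genes. Both comparison runs were chosen with results of these data known, and the differences in position were not tested.

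**Figure D2:**
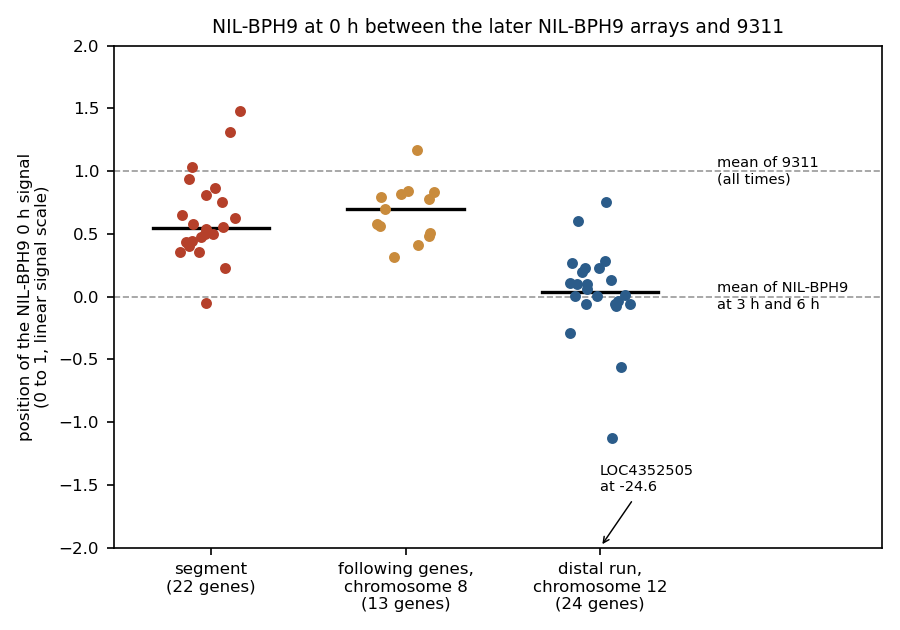
Position of the NIL-BPH9 0 h signal for single genes (points; y axis, linear scale, 0 = mean of NIL-BPH9 at 3 h and 6 h, 1 = mean of 9311), with black lines at the medians. The medians are 0.548 over 22 segment genes, 0.694 over 13 following genes and 0.0361 over 24 genes of the chromosome 12 run, where LOC4352505 lies off the axis at -24.6.

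Genes were also chosen at 6 h alone, so the arrays at 0 h and 3 h did not enter this choice of genes. The segment itself was chosen with the line differences at 3 h in view, so the 3 h values of its genes are not free of that choice. The 25 segment genes separated at 6 h with a difference of at least 1 had, in the direction seen at 6 h, a median line difference of 0.61 at 0 h and 2.20 at 3 h, and in 23 of 25 the difference at 0 h was the smaller. The 18 genes chosen this way among those following the segment had 0.55 and 1.59, with 15 of 18 smaller at 0 h. In the chromosome 12 run the 27 genes had 1.86 and 1.87, with 18 smaller at 0 h. Over the 269 other genes the values were 0.46 and 0.71, with 168 smaller at 0 h. The cause of the intermediate signals at 0 h was not tested. The log2 ratio of 3′ to 5′ control probe sets, a measure of RNA quality, averaged 1.62 ± 0.43 in NIL-BPH9 and 1.61 ± 0.18 in 9311 at 0 h (SD, n = 3 each). It was 1.68 ± 0.39 in NIL-BPH9 and 1.81 ± 0.19 in 9311 at 3 h, and 1.52 ± 0.16 in NIL-BPH9 and 1.81 ± 0.50 in 9311 at 6 h, and its part in the line differences was not tested. For the members named for their NIL-BPH9 responses below, the comparison of 6 h with 3 h, which does not use the arrays at 0 h, is also given.

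The lines differed on a large share of the segment at 3 h and 6 h. In limma's fit, 60 of 181 segment probe sets (33.1%) passed an adjusted p of 0.05 at 3 h, beside 7.46% of all 33094 tested probe sets, and 76 (42%) at 6 h, beside 11.3%. At 0 h it was 48 (26.5%), beside 14.4%. These shares restate the choice of the segment. The split by direction was even, with 32 higher and 28 lower in NIL-BPH9 at 3 h (4.25% and 3.21% of all), and 39 higher and 37 lower at 6 h (5.75% and 5.54% of all). At 0 h, 22 were higher and 26 lower (6.92% and 7.49% of all). At least 2-fold differences among them numbered 10 at 0 h, 27 at 3 h and 28 at 6 h, beside 1.72%, 1.69% and 1.68% of all tested probe sets.

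Counted by overlap alone, 73 members (40.3%, beside 9.26% of all tested probe sets) were separated in 1 direction at 3 h and 6 h, 37 higher and 36 lower (4.9% and 4.35% of all). At all 3 times it was 37 members (20.4%, beside 3.18%), of which 21 were higher and 16 lower in NIL-BPH9 (2.13% and 1.05% of all). The segment median of the line difference stayed near 0 at each time (0.03, -0.02 and -0.08 on the log2 scale at 0, 3 and 6 h), beside 0.02, -0.01 and -0.03 over all tested probe sets. The genes of the segment did not move as a block in 1 direction.

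**Figure D3:**
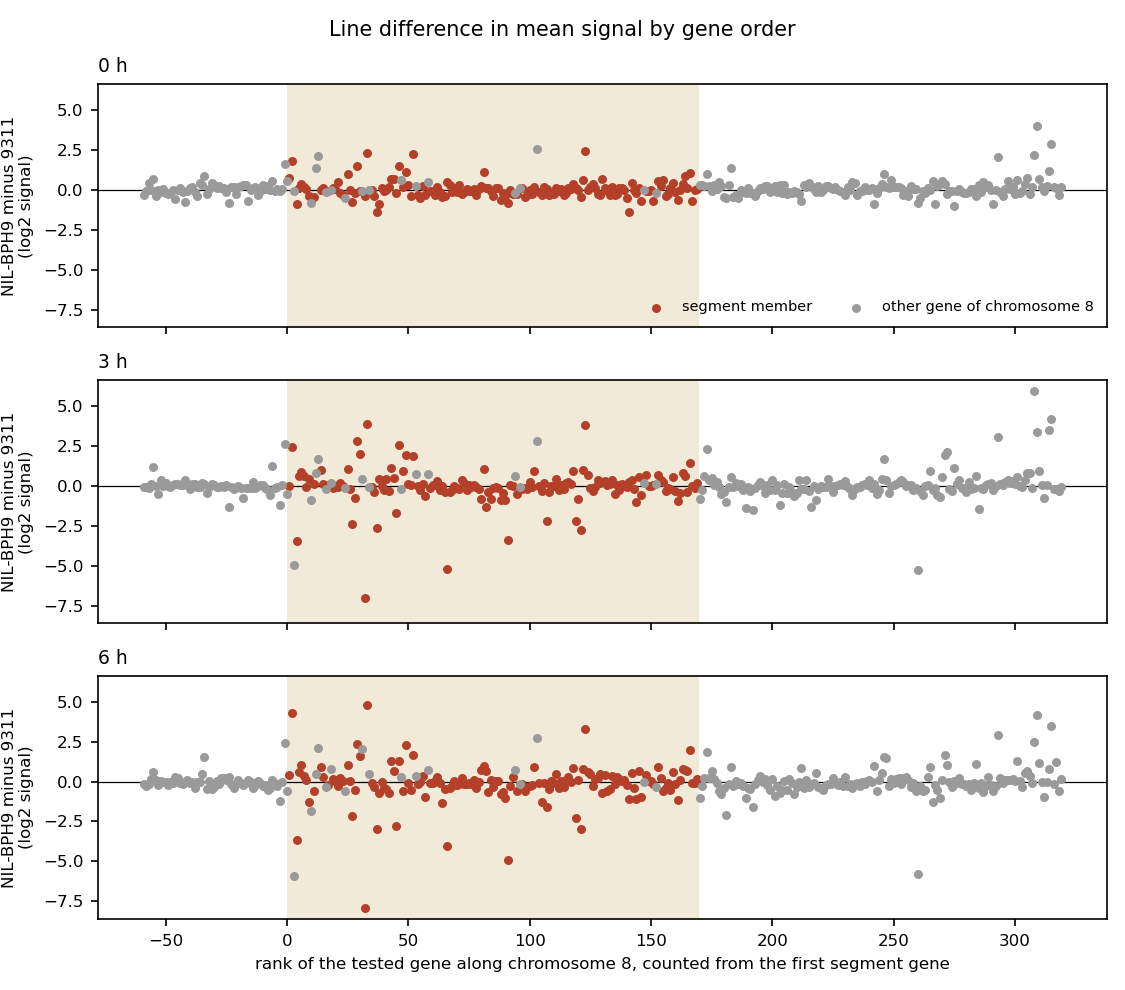
Difference in mean log2 signal, NIL-BPH9 minus 9311 (y axis), of the tested genes of chromosome 8 in their order (x axis, rank from the first segment gene), at 0, 3 and 6 h. Red points in the shaded band are segment genes and grey points other genes of chromosome 8; points spread wider in the band at 3 h and 6 h than at 0 h, as in LOC4344881, at -0.37, -7.00 and -7.92.

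Of genes separated at all 3 times, the highest in NIL-BPH9 by mean line difference was LOC4344890, at 3.67 (log2). LOC4345108 followed with 3.18. It had 6.14, 5.59 and 6.53 in NIL-BPH9 at 0 h, 7.08, 7.10 and 7.04 at 3 h, and 6.56, 7.09 and 6.55 at 6 h, against 2.10 to 4.78 in 9311, where no array reached its median. In 9311 this gene was therefore near background, and the size of its difference is uncertain. With values raised to the median its mean difference was 1.30. LOC4344829 (2.83) and LOC4344914 (1.76) also had no 9311 array at the median, and their means became 1.09 and 0.32. LOC4344876 (2.22), LOC4344922 (1.90) and LOC4344917 (1.79) were measured in both lines on some arrays.

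LOC4344917 is a measurable case in both lines. It had 8.46, 8.51 and 8.20 in NIL-BPH9 at 0 h, 9.08, 8.64 and 9.12 at 3 h, and 9.29, 9.46 and 9.39 at 6 h, against 6.63 to 7.43 in 9311. LOC4344999 (1.07) and LOC4344869 (1.02) had similar differences at the 3 times, with 1.13, 1.07 and 0.99 for LOC4344999 at 0, 3 and 6 h and 0.97, 1.04 and 1.05 for LOC4344869. The other 6 of the 15 higher genes, LOC4345106, OSH45, LOC4345098, LOC4345175, LOC4345190 and LOC4345157, ranged from 0.79 to 0.44. For LOC4345190 the value was 0.63, but a brighter probe set of that gene, with suffix _x_at, gave 0.01. Its remaining probe set gave -0.04 with values raised to the median, so the difference of LOC4345190 rests on 1 probe set.

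Of genes lower in NIL-BPH9 at all 3 times, LOC4344881 had the lowest mean difference, -5.10, followed by LOC4345032 (-3.05), LOC4344895 (-2.32), LOC4345104 (-2.07) and LOC4344873 (-1.76). That order rests on NIL-BPH9 signals under the array median. With values under an array's median raised to that median, the means were -2.52 for LOC4345032, -2.32 for LOC4344895, -2.07 for LOC4345104, -2.03 for LOC4344881 and -1.76 for LOC4344873. On that scale LOC4344881 was at least 7.05-fold lower in NIL-BPH9 at 3 h and at least 7.45-fold lower at 6 h. LOC4345032 had 7.63, 7.52 and 7.59 in NIL-BPH9 at 0 h, 5.59, 5.27 and 4.42 at 3 h, and 5.84, 1.66 and 5.32 at 6 h, against 8.35 to 9.30 in 9311. LOC4344873 had 8.86, 8.63 and 8.39 in NIL-BPH9 at 0 h, 6.46, 6.76 and 6.86 at 3 h, and 7.39, 7.17 and 7.16 at 6 h, against 8.93 to 9.60 in 9311. In each of these genes 9311 was well above its array medians. The other 10 genes of the group were lower by smaller amounts, from -0.92 (LOC4345187) to -0.17 (LOC4344968).

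Brighter genes with small and steady differences were LOC4345024 and OsYchF1, an unconventional G protein that binds nucleotides. LOC4345024 had 11.89, 11.99 and 12.01 in NIL-BPH9 at 0 h, 11.80, 11.79 and 11.76 at 3 h, and 11.66, 11.57 and 11.71 at 6 h, against 12.36 to 12.71 in 9311. OsYchF1 was lower by 0.41, 0.37 and 0.33 at 0, 3 and 6 h, with 11.04 to 11.32 in NIL-BPH9 and 11.43 to 11.71 in 9311. The 9 arrays of the lines did not overlap in either gene.

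Of the 73 probe sets separated at 3 h and 6 h, 36 were not separated in that direction at 0 h and 37 were. Over all tested probe sets, 1052 of the 3064 separated at 3 h and 6 h were also separated at 0 h. Loss of separation at 0 h was thus not particular to the segment, and its share was larger over the whole array. LOC4344943 had 8.95, 8.90 and 9.09 in NIL-BPH9 at 0 h, 5.10, 0.30 and 4.59 at 3 h, and 5.62, 4.41 and 3.99 at 6 h, against 8.14 to 9.05 in 9311. LOC4345100 had 9.33, 9.39 and 9.09 in NIL-BPH9 at 0 h, 7.35, 7.28 and 6.91 at 3 h, and 7.39, 7.01 and 7.25 at 6 h, against 9.03 to 9.58 in 9311. NIL-BPH9 overlapped 9311 at 0 h in both genes, with positions of 1.31 and 0.935. LOC4344913, at 7.90, 8.10 and 8.74 in NIL-BPH9 at 0 h, 6.04, 6.55 and 6.40 at 3 h and 5.40, 5.47 and 5.45 at 6 h, against 7.89 to 8.65 in 9311, had a position of 1.03. LOC4345059 had the highest position, 1.48, with NIL-BPH9 at 6.47, 6.62 and 7.32 at 0 h.

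Separated genes were spread over the whole segment. Of 152 genes with a tested probe set, each taken by its brightest, 66 (43.4%) were separated at 3 h and 6 h. In 5 consecutive blocks of the gene order the shares were 54.8%, 35.5%, 40%, 40% and 46.7%. The longest run of neighbours without a separated gene held 7 genes, from LOC4344969 to LOC4344991. Outside, the share was 16.7% in the 30 tested genes before the segment, 46.7% in the 30 after it and 9.37% over the rest of chromosome 8. Of 17 tested genes that lie within the segment but have identifiers outside its range, 10 were separated. The rule's last gene therefore did not mark an end of the pattern, since 32.4% of the genes from LOC4345201 to LOC4345492 were also separated.

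At the first end, the members just inside were LOC4344827, LOC4344829 and LOC4344831, with line differences at 3 h of 0.01, 2.40 and -3.45. The genes just outside were LOC4344820, LOC4344823 and LOC4344824, with 0.07, 2.62 and -0.52. At the last end, LOC4345194, LOC4345198 and LOC4345200 had 0.00, -0.13 and 0.16 inside, and LOC4345201, LOC4345202 and LOC4345203 had -0.80, -0.25 and 0.64 outside. LOC4344823, just outside the first end, was separated at 3 h and 6 h.

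Responses to infestation within a line were tested with limma over all probe sets. They share arrays with the line differences that chose the members, and a NIL-BPH9 response against 0 h is not independent of them. In NIL-BPH9, 47 of 181 members (26%) passed an adjusted p of 0.05 at 3 h against 0 h, 22 up and 25 down, beside 14.1% of all tested probe sets (7.61% up, 6.47% down). At 6 h against 0 h it was 59 (32.6%), 25 up and 34 down, beside 18.7% (8.28% up, 10.4% down). At 6 h against 3 h, without the arrays at 0 h, it was 32 (17.7%), 13 up and 19 down, beside 14.9% (7.17% up, 7.76% down). The share above background was therefore in the comparisons that use the NIL-BPH9 arrays at 0 h, and the 6 h against 3 h share was near background.

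In 9311, 31 members (17.1%), 11 up and 20 down, passed at 3 h against 0 h, beside 14.8% (7.61% up, 7.22% down). At 6 h against 0 h it was 14 (7.73%), 6 up and 8 down, beside 7.62% (4.29% up, 3.33% down). At 6 h against 3 h it was 9 (4.97%), 5 up and 4 down, beside 5.14% (2.96% up, 2.17% down). All 3 shares in 9311 were near the background. None of the called members in 9311 reached 2-fold at 3 h or 6 h against 0 h, where 1.59% and 0.749% of all tested probe sets did. In NIL-BPH9, 14 members did at 3 h and 17 at 6 h, beside 1.92% and 2.79% of all tested probe sets. Centring each array on its median shifted the median response of NIL-BPH9 at 6 h by 0.12, and the share of calls that rose changed to 58.2% with centring, against 42.4% without. With centring it was also 56.2% against 35.5% in 9311 at 3 h, 100% of 7 calls against 42.9% in 9311 at 6 h, 72.2% against 40.6% in NIL-BPH9 at 6 h against 3 h, and 100% of 4 calls against 55.6% in 9311 at 6 h against 3 h. The split moved because calls were gained and lost, and no called direction reversed (in 9311 at 6 h, 7 rises and 0 falls with centring, against 6 and 8 without).

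**Figure D4:**
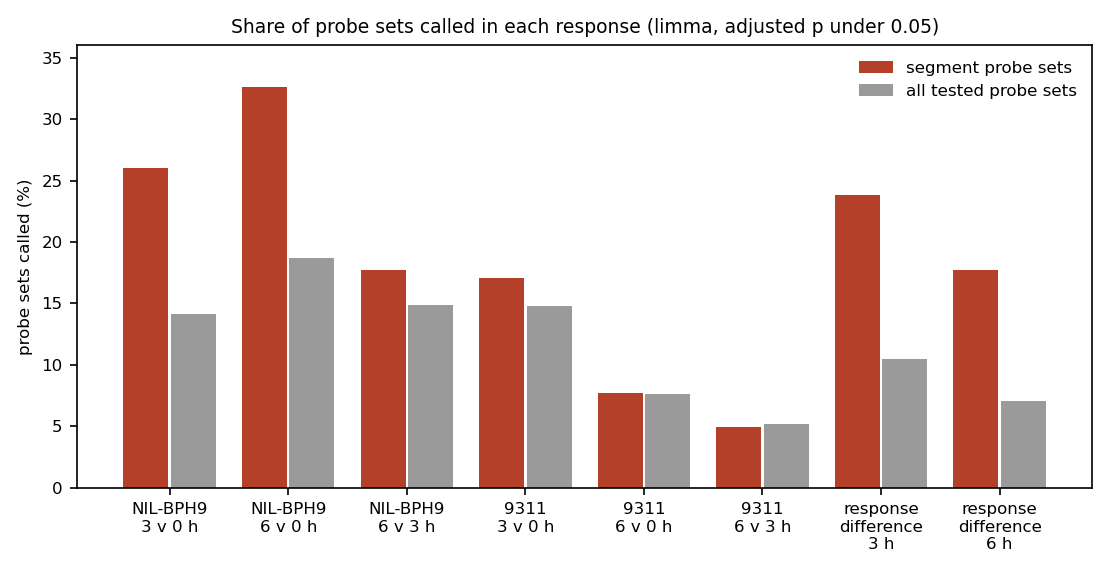
Share of probe sets (y axis, percent, from 0) that passed an adjusted p of 0.05 in limma for 8 comparisons (x axis), red for the 181 tested segment probe sets and grey for all 33094. Segment bars are above the grey bars where the NIL-BPH9 arrays at 0 h enter (26 and 32.6 beside 14.1 and 18.7) and near them in the 9311 comparisons.

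The direction of the NIL-BPH9 responses was set beside the line difference on arrays that the response did not use. Of the 47 members called at 3 h against 0 h, 38 (80.9%) moved away from 9311, as given by the line difference at 6 h, beside 50.6% of all 4660 probe sets called. Of the 59 called at 6 h, 47 (79.7%) moved away from 9311 as given at 3 h, beside 65% of 6188. In 9311 a response with the sign of the line difference is a move toward NIL-BPH9. Such moves were 20 of 31 and 9 of 14, beside 54.7% and 45.7%. The line differences at 3 h and 6 h also chose the segment, so these shares are a description and are not independent of that choice.

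The largest called falls in NIL-BPH9 at 3 h against 0 h were LOC4344881, by 6.58 ± 0.36 on the log2 scale (SE; adjusted p = 2.84e-10, limma), and LOC4344943, by 5.65 ± 0.77 (adjusted p = 3.96e-05). Both reached signals below the array medians. With values raised to the median, LOC4344881 fell by at least 2.40 and LOC4344943 fell by at least 3.59. LOC4345059 fell by 2.56 ± 0.35, LOC4345032 by 2.49 ± 0.65 and LOC4344831 by 2.29 ± 0.55. LOC4345059 was also below the median on the later NIL-BPH9 arrays, and with values raised to the median it fell by at least 1.41. Without the first NIL-BPH9 replicate at 0 h, the call of LOC4344831 was lost (-1.82, adjusted p = 0.0518, limma), and it was also lost with values raised to the median (-0.52, 0.247) and with only the 2 groups in the fit (0.0589). The call of LOC4345032 was lost without the third replicate at 3 h (adjusted p = 0.0687, limma). At 6 h, against the same 0 h arrays, LOC4344881, LOC4344943, LOC4345032 and LOC4345059 were also called as lower, and LOC4344913 fell by 2.80 ± 0.21. LOC4344913 also fell at 6 h against 3 h, by 0.89 ± 0.21 (adjusted p = 0.00545, limma), a call lost with only the 2 groups in the fit (0.0626). The other 5 had no call there, with -0.93 for LOC4344881, 1.34 for LOC4344943, 0.01 for LOC4345059, -0.82 for LOC4345032 and 0.08 for LOC4344831.

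The rises were smaller. At 3 h LOC4344890 rose by 1.49 ± 0.46, LOC4344879 by 1.07 ± 0.34, LOC4344897 by 0.96 ± 0.13, LOC4344876 by 0.87 ± 0.24 and LOC4345098 by 0.71 ± 0.07. The call of LOC4344890 was lost when any NIL-BPH9 array at 0 h or 3 h was left out (adjusted p from 0.0705 to 0.0949, limma), and that of LOC4344879 in 9 settings, 8 of them without 1 array (adjusted p from 0.0503 to 0.146). LOC4344876 lost its call without the first or the third array of either group (adjusted p from 0.0698 to 0.0867, limma). LOC4345098 kept its call in every setting run, with a mean of 12.07 in NIL-BPH9 at 0 h, and 12.79, 12.68 and 12.86 at 3 h, and 12.43, 12.71 and 12.60 at 6 h. In 9311 it was 11.61 to 11.89, below every NIL-BPH9 array. None of these 5 genes was called at 6 h against 3 h, with -0.48 for LOC4344890, 0.16 for LOC4344879, -0.27 for LOC4344897, -0.22 for LOC4344876 and -0.20 for LOC4345098. At 6 h LOC4344879 (1.23), LOC4345003 (1.08), LOC4344917 (0.99), LOC4345192 (0.88) and LOC4344833 (0.77) led the rises. Against 3 h, LOC4344917 (0.43) and LOC4344833 (0.20) were not called. The call of LOC4345003 was lost under several settings (adjusted p up to 0.19 without the first NIL-BPH9 array at 6 h, limma), and that of LOC4344879 without the third array of either group (adjusted p = 0.0635 and 0.0552).

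Between 3 h and 6 h, where the arrays at 0 h play no part, NIL-BPH9 members also changed. LOC4345192 had 12.37, 12.36 and 12.24 at 6 h, against 10.94, 10.53 and 10.74 at 3 h, a rise of 1.59 ± 0.15 (adjusted p = 1.96e-07, limma). Its other probe set rose by 1.02 ± 0.06. In 9311 LOC4345192 also rose, by 0.51 (adjusted p = 0.0489, limma), a call lost in 15 of 27 settings. Its other probe set was called in 9311 too, in all 27 settings. In NIL-BPH9 LOC4344996 rose by 1.88 ± 0.20 and LOC4345003 by 2.06 ± 0.36. The NIL-BPH9 rises of LOC4345192 and LOC4344996 followed called falls at 3 h against 0 h, by 0.71 and 1.16. At 3 h, LOC4344996 and LOC4345003 were lower on every NIL-BPH9 array than on any 9311 array of that time, and at 6 h LOC4344996 was above every 9311 array.

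In 9311 the largest called change at 3 h against 0 h was in LOC4345168, which fell by 0.97 ± 0.26, a call that was lost without the second or the third array of either group (adjusted p from 0.0666 to 0.0752, limma). LOC4345161 fell by 0.64, a call lost when any 1 array of the 2 groups was left out (adjusted p from 0.0542 to 0.1, limma). LOC4345045 fell by 0.49 and LOC4344865 by 0.47. LOC4345153 rose by 0.52 and LOC4345149 by 0.36, and both were also called as higher at 6 h, by 0.34 and 0.35. Both calls at 6 h were lost without the first 9311 array at 6 h (adjusted p = 0.0577 and 0.0601, limma) and with only the 2 groups in the fit (0.132 and 0.123), and that of LOC4345153 also without the second (0.0617). LOC4345153 also rose in NIL-BPH9 at 3 h, by 0.51 ± 0.08, fell there at 6 h against 3 h by 0.29 ± 0.08 (adjusted p = 0.015, lost in 3 of 27 settings), and the difference between the lines in that response was -0.01 ± 0.11 (adjusted p = 0.983, limma).

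The difference between the lines in the response was tested as a contrast of its own. It passed in 43 members (23.8%) at 3 h, 22 positive and 21 negative, beside 10.5% of all tested probe sets (5.8% positive, 4.72% negative), and in 32 (17.7%) at 6 h, 13 positive and 19 negative, beside 7.03% (3.83% positive, 3.19% negative). These contrasts hold the NIL-BPH9 arrays at 0 h, whose median position lay between the lines. They also share their arrays with the line differences that chose the segment. LOC4345104 gave -2.35 ± 0.13 at 3 h and -2.53 ± 0.13 at 6 h (adjusted p = 2.85e-09 and 1.14e-09, limma). LOC4345100 gave -2.31 ± 0.18 and -2.41 ± 0.18.

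LOC4344847 was separate from these in that it started level and parted in both lines. It had 11.53, 11.63 and 11.67 in NIL-BPH9 at 0 h, 12.36, 12.24 and 12.28 at 3 h, and 12.09, 12.12 and 12.15 at 6 h. In 9311 it had 11.57, 11.60 and 11.58 at 0 h, 11.41, 11.29 and 11.32 at 3 h, and 11.20, 11.21 and 11.23 at 6 h. It rose by 0.69 ± 0.05 at 3 h in NIL-BPH9 and fell by 0.24 ± 0.05 in 9311 (adjusted p = 1.62e-08 and 0.00248, limma). In NIL-BPH9 it fell at 6 h against 3 h by 0.17 ± 0.05 (adjusted p = 0.0258, limma), a call lost in 6 of 27 settings (adjusted p up to 0.661 with centring). The difference of these responses was 0.93 ± 0.07 (adjusted p = 1.4e-07). It fell by 0.37 in 9311 at 6 h, a call lost with arrays centred on their medians (-0.27, adjusted p = 0.0822, limma). Centring also ended the 9311 call at 3 h (-0.20, adjusted p = 0.195, limma), as did fitting only the 2 groups (0.0566).

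Of 18 members with a name other than a LOC number, 16 were tested. The homeobox gene OsWOX10 and the cellulose synthase-like OsCslC3 stayed below the array median on all 18 arrays. In NIL-BPH9, 3 of the 16 passed at 3 h against 0 h (2 up, 1 down) and 4 at 6 h (3 up, 1 down), beside 14.1% and 18.7% of all tested probe sets. In 9311 it was 8 at 3 h (4 up, 4 down) and 3 at 6 h (2 up, 1 down), beside 14.8% and 7.62%. None of these named genes had a called change of 2-fold or more in 9311.

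The first group of named genes regulates others. ROC1, a homeobox protein of the epidermal layer, had 11.48, 11.98 and 11.77 in NIL-BPH9 at 0 h, 11.89, 11.94 and 11.85 at 3 h, and 11.96, 11.94 and 11.96 at 6 h, and was higher than 9311 by 0.61 at both 3 h and 6 h. It fell by 0.32 ± 0.10 in 9311 at 3 h (adjusted p = 0.0446, limma), a call lost in 17 of 27 other settings (adjusted p up to 0.17). OSH45, a KNOX-type homeobox gene, was higher in NIL-BPH9 at every time, with 10.95 to 11.37 there and 10.13 to 10.76 in 9311. It rose at 3 h in both lines, by 0.23 ± 0.07 in NIL-BPH9, a call lost in 15 of 26 settings (adjusted p up to 0.158, limma), and by 0.45 ± 0.07 in 9311, and the difference of those responses was not called (-0.22 ± 0.11, adjusted p = 0.208, limma). It fell at 6 h against 3 h by 0.25 ± 0.07 in NIL-BPH9 and 0.35 ± 0.07 in 9311 (adjusted p = 0.0284 and 0.00744, limma), and the 9311 call was lost with arrays centred on their medians (-0.29, 0.195) and without the third array at 6 h (0.0518). The NIL-BPH9 call was lost in 5 of 27 settings (adjusted p up to 0.437 with centring, limma).

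SMAX1L, related to the repressors of karrikin and strigolactone signalling, rose at 3 h by 0.51 ± 0.09 in NIL-BPH9 and 0.42 ± 0.09 in 9311, with -0.19 and -0.26 at 6 h against 3 h, neither of them called. Its line difference was small, 0.14, 0.24 and 0.31 at 0, 3 and 6 h. XBOS35, a RING-type ubiquitin ligase with ankyrin repeats, had a called difference of responses at 3 h with its brighter probe set (-0.79 ± 0.23, adjusted p = 0.0356, limma), lost in 12 of 26 settings (adjusted p up to 0.097). Its dimmer probe set had 10.04, 9.77 and 9.85 in NIL-BPH9 at 0 h, 9.07, 8.93 and 8.93 at 3 h, and 9.05, 8.89 and 9.08 at 6 h, against 10.04 to 10.32 in 9311. That probe set fell in NIL-BPH9 by 0.91 ± 0.08 at 3 h and 0.88 ± 0.08 at 6 h (0.03 at 6 h against 3 h, not called), whereas the brighter one gave -0.41 and -0.13, neither of them called. The brighter probe set of XBOS35 fell in 9311 at 6 h against 3 h by 0.63 ± 0.17, a call lost without 5 of the 6 arrays in turn (adjusted p from 0.0502 to 0.133, limma). ATG8C, a ubiquitin-like protein of autophagy, was bright, from 13.28 to 13.61 in NIL-BPH9 and 13.29 to 13.58 in 9311. It rose in 9311 at 3 h by 0.21, a call lost in 9 of 27 settings (adjusted p up to 0.118, limma).

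Genes of the cell wall and of phenylpropanoids showed 1 clear change. Os4CL1, a 4-coumarate CoA ligase that activates cinnamic acids for lignin and flavonoid synthesis, had 8.30, 7.47 and 7.85 in NIL-BPH9 at 0 h, 7.81, 7.49 and 7.72 at 3 h, and 6.70, 6.82 and 6.37 at 6 h. In 9311 it had 7.81 to 8.48. It fell by 1.24 ± 0.19 at 6 h against 0 h (adjusted p = 0.000157, limma) and by 1.04 ± 0.19 at 6 h against 3 h (adjusted p = 0.00076), so a fall was also called without the arrays at 0 h. The response at 6 h differed between the lines by -0.98 ± 0.27 (adjusted p = 0.0345, limma), a call lost in 12 of 26 settings (adjusted p up to 0.0875). OsXTH8, a xyloglucan endotransglucosylase/hydrolase that remodels cell wall xyloglucan, rose in 9311 at 3 h by 0.23 ± 0.06, a call lost in 3 of 27 settings (adjusted p up to 0.137, limma).

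Germin-like proteins are cell wall proteins, some of which form hydrogen peroxide. OsGER1 had 8.90 to 9.20 in NIL-BPH9 at 0 h, 9.45, 9.18 and 9.10 at 3 h, and 9.52, 9.41 and 9.25 at 6 h. In 9311 it had 9.47, 9.43 and 9.45 at 0 h, 9.19, 9.10 and 9.02 at 3 h, and 10.10, 9.90 and 9.96 at 6 h. It rose at 6 h against 0 h by 0.36 ± 0.10 in NIL-BPH9 and by 0.54 ± 0.10 in 9311, and fell in 9311 at 3 h by 0.34 ± 0.10. The NIL-BPH9 call was lost in 4 of 26 settings and the 9311 call at 3 h in 6 of 27 (adjusted p up to 0.0895 and 0.117, limma). Between 3 h and 6 h it gave 0.15 in NIL-BPH9, not called, and rose by 0.88 ± 0.10 in 9311 (adjusted p = 1.36e-05, limma). The difference of responses was called at 3 h (0.55 ± 0.14, adjusted p = 0.0176, limma), and lost in 2 of 26 settings (adjusted p up to 0.0602). OsGER3 was near the array median and had no called response. Germin-like genes are near copies of each other, so their probe sets may share targets.

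The remaining named genes serve transport and metabolism. OsZIP4, a zinc transporter, fell at 3 h against 0 h by 0.38 ± 0.06 in NIL-BPH9 and 0.49 ± 0.06 in 9311, and rose again at 6 h against 3 h by 0.39 ± 0.06 and 0.38 ± 0.06. It was higher in NIL-BPH9 at every time, by 0.19, 0.30 and 0.31 at 0, 3 and 6 h. The differences of its responses between the lines were 0.12 ± 0.09 at both times. OsGLYI-11, a glyoxalase I that detoxifies methylglyoxal, rose at 6 h by 0.20 ± 0.06 in NIL-BPH9 and 0.27 ± 0.06 in 9311, with 0.14 and 0.09 at 6 h against 3 h, neither of them called. The NIL-BPH9 call was lost in 7 of 26 settings (adjusted p up to 0.164, limma). The 9311 call was lost without any of 3 arrays (the first or second at 0 h, or the first at 6 h, adjusted p from 0.0507 to 0.0718, limma) and with only the 2 groups in the fit (0.174).

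PYRB, the aspartate carbamoyltransferase of pyrimidine synthesis, fell in 9311 by 0.26 ± 0.07 at 3 h and 0.30 ± 0.07 at 6 h. The call at 3 h was lost in 6 of 27 settings (adjusted p up to 0.21, limma). The call at 6 h was lost with arrays centred on their medians (-0.21, adjusted p = 0.265, limma), with only the 2 groups in the fit (0.117) and without any of 4 single arrays (0.0503 to 0.0741). BIO3-BIO1, of biotin synthesis, and VLN5, a villin that binds actin filaments, had no called response. CpSecY, of the protein translocase in the thylakoid membrane, fell in NIL-BPH9 at 6 h against 3 h by 0.21 ± 0.06, a call lost in 5 of 27 settings (adjusted p up to 0.498 with centring, limma).

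Where a gene has several probe sets, they bear on whether the line difference belongs to the transcript or to the probes. Of 34 such genes, 24 had at least 2 tested probe sets, and the 2 brightest were paired, with 3 pairs designed on 1 target sequence. The brighter minus the dimmer signal was taken on each array. In 2 of the 24 pairs (8.33%) the 9 arrays of NIL-BPH9 did not overlap the 9 of 9311, beside 0.605% of the 2479 pairs on the array. The mean line differences of the 2 probe sets were at least 1 apart in 5 pairs (20.8%), beside 39 of 2455 pairs (1.59%) of the other genes. Both segment counts include LOC4345161, whose dimmer probe set was tested only through NIL-BPH9. That probe set had to be higher in NIL-BPH9, so this pair supports nothing in either count. The median size of the gap was 0.40 in the segment and 0.10 elsewhere. The segment was chosen for line differences, so larger gaps between probe sets there are not independent of that choice.

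The widest gap was in LOC4345161. Its brighter probe set had 10.44, 10.52 and 10.61 in NIL-BPH9 at 0 h, 10.28, 10.32 and 9.35 at 3 h, and 10.19, 9.36 and 9.88 at 6 h, against 10.50 to 11.27 in 9311. Its dimmer probe set had 6.23, 5.77 and 6.47 in NIL-BPH9 at 0 h, 7.03, 7.24 and 7.10 at 3 h, and 6.52, 6.88 and 6.84 at 6 h, against 0.49 to 3.91 in 9311. The 2 probe sets gave opposite line differences, -0.77 for the brighter and 4.60 for the dimmer. The dimmer probe set was below the median on all 9 arrays of 9311 and was tested only through NIL-BPH9, so 4.60 is not a measured size. With values raised to the array median it was at least 1.72-fold, 3.47-fold and 2.77-fold higher in NIL-BPH9 at 0, 3 and 6 h.

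LOC4345177 gave 0.26 with its brighter probe set and 2.25 with its dimmer one. The dimmer one had 7.57, 7.83 and 8.18 in NIL-BPH9 at 0 h, 8.79, 8.67 and 8.87 at 3 h, and 8.58, 7.98 and 8.50 at 6 h, against 4.34 to 6.78 in 9311. The brighter one, with 9.03 to 9.31 in NIL-BPH9 and 8.59 to 9.09 in 9311, overlapped between the lines. LOC4345159 also gave opposite signs, -0.79 and 0.62, and LOC4345194 gave -0.26 and 0.87 near the array median.

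Other pairs gave the same direction. Both probe sets of LOC4344943 were lower in NIL-BPH9, by -2.92 and -1.33 on average, and both were separated at 3 h and 6 h. Both probe sets of LOC4344876 were higher, by 2.22 and 1.77, and both of LOC4344829, by 2.83 and 1.84. The pair of LOC4344876 was designed on 1 target sequence, so its 2 probe sets are not independent. No 9311 array reached the median with either probe set of LOC4344829, so both had to be higher in NIL-BPH9, and their like direction supports nothing. Over all 24 pairs, 16 had mean line differences of the same sign. In 3 pairs, LOC4344829 and LOC4344876 among them, both probe sets differed by at least 1, and in another 3 only 1 of them did. The share of line differences due to mismatches was not tested, since probe sequences were not used here.

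**Figure D5:**
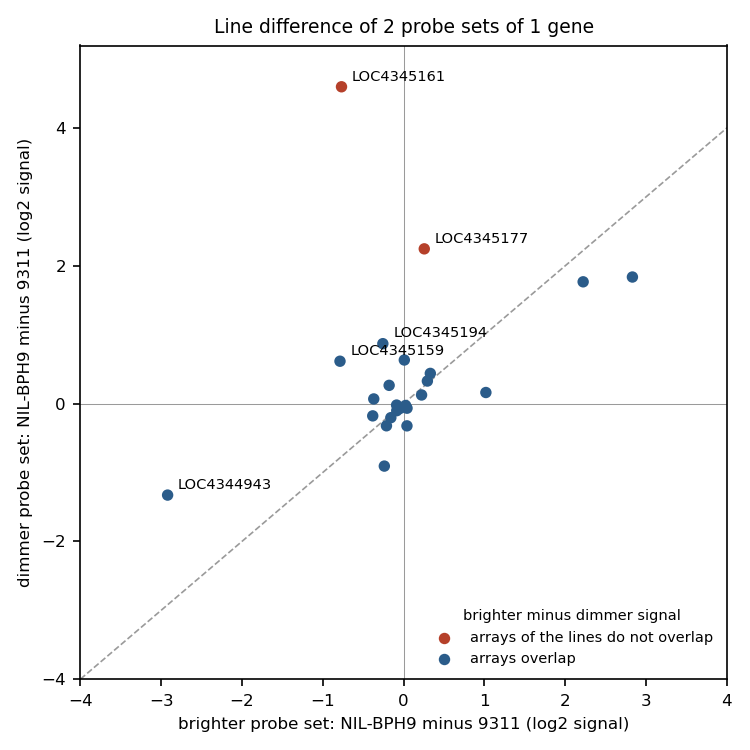
Mean line difference over the 3 times (NIL-BPH9 minus 9311, log2 signal) of the brighter probe set (x axis) and the dimmer probe set (y axis) of 24 segment genes, with the dashed line at equality. LOC4345161 (-0.77 and 4.60) and LOC4345177 (0.26 and 2.25), in red, are the pairs whose signal difference does not overlap between the lines.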

How the data were processed

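RNA of 18 leaf sheath samples was hybridised, 1 sample per array, to 1-colour Affymetrix rice arrays. The deposited table holds log2 values, 1 per probe set and array, and per the submitters' processing notes they come from MAS5, with its version not given in the sources used here. Their log2 scale was read from the deposited values, of which 24806 are at 0. The precision is limited by the number of arrays. Detection calls were not used.

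Of 57381 probe sets, 187 were controls and were left out. Genes come from the platform annotation, and names and neighbour order from the RefSeq table (assembly GCF_034140825.1), whose build need not be that of the array, so no coordinates are given. Gene descriptions were not used here, so the planned gene classes were not formed, and no sequences were shown. Of 57194 rice probe sets, 33094 were tested, those at or above the array median on at least 3 arrays. limma (version 3.58.1, R 4.3.3) fitted 6 group means over all arrays, with eBayes (trend in mean signal) and p-values adjusted after Benjamini and Hochberg over all tested probe sets at a threshold of 0.05. All adjusted p-values are from limma, and the spread of a response is its standard error. Alternatives were quantile normalization, arrays centred on the median, no filter and a stricter one, no trend, only the groups compared, values raised to the array median, the replicate block, and leaving out arrays. Each gene is represented by its brightest tested probe set, with suffix _x_at only where there is no other. The fit was tested on simulated data before use. The labels call the samples biological replicates but do not say how plants were grouped or pooled.

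Replicate numbers are shared across groups in the labels. The deviations of same-numbered arrays from their group means had a median correlation of -0.00867 over 45 pairs (range -0.107 to 0.0662), and 0 were above 0.1, so the numbers were not taken to pair the samples. The members, lists and tests were chosen with earlier results of these data known. Genes named are the 15 highest and 15 lowest by mean line difference among those separated at all times, the 5 largest called rises and falls per response, the 8 largest differences of responses, the 10 probe set pairs that differ most, 3 genes on each side of each end, and all members with a name. The examples printed are a selection of these, and the comparisons of 6 h with 3 h were added after seeing the data.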

Additional observations from a re-analysis of the deposited data

Results flagged for a closer look

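The differences between the lines in the response, NIL-BPH9 minus 9311, were tested as a contrast in limma. The largest called ones are listed here because the change in signal from 0 h was not the same in the 2 lines. Whether infestation caused that difference was not tested. At 3 h they were -6.63 (log2) for LOC4344881, -5.67 for LOC4344943, -2.56 for LOC4344831, -2.35 for LOC4345104, -2.31 for LOC4345100, -2.28 for LOC4345059 and -1.67 for LOC4344873, and 2.03 for LOC4344879. At 6 h they were -7.55 for LOC4344881, -4.50 for LOC4344943, -4.07 for LOC4345032, -2.78 for LOC4344831, -2.64 for LOC4344913, -2.53 for LOC4345104 and -2.41 for LOC4345100, and 2.44 for LOC4344890. All use the NIL-BPH9 arrays at 0 h. Of the 22 segment genes given a position, 13 had those arrays between 0.25 and 0.75 of the way to 9311, but LOC4344943 (1.31), LOC4345059 (1.48) and LOC4344913 (1.03) lay beyond the 9311 mean. The part of this in the differences was not tested. Some of the sizes also rest on signals under the array median. With values raised to the median, the NIL-BPH9 fall at 3 h was 2.40 for LOC4344881, 3.59 for LOC4344943, 0.52 for LOC4344831 and 1.41 for LOC4345059. On that scale the line difference of LOC4344890 at 6 h was 3.71, against 4.78 without it.

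LOC4344831 passed by a small margin (adjusted p = 0.0399 at 3 h and 0.0362 at 6 h, limma), and its call was lost under several settings, with adjusted p up to 0.223 at 3 h when values were raised to the array median. LOC4344890 at 6 h (adjusted p = 0.0284) was lost without any 1 of several arrays, for example the first NIL-BPH9 array at 0 h (adjusted p = 0.0549). At 6 h the calls of LOC4344943 (adjusted p = 0.066) and LOC4345032 (0.0504) were lost without the intensity trend.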

How the results depend on the processing

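With arrays centred on their medians, the calls among segment probe sets were 16 for 9311 at 3 h, 7 for 9311 at 6 h, 23 and 17 for the difference of responses at 3 h and 6 h, 18 for NIL-BPH9 at 6 h against 3 h and 4 for 9311 at 6 h against 3 h. Fitting only the groups compared gave 11 for 9311 at 3 h, 6 for 9311 at 6 h, 20 for the difference of responses at 6 h and 28 for the lines at 0 h. Without the intensity trend the difference of responses at 6 h gave 21. On the log2 scale the median position was 0.688. Leaving out 1 array at a time gave 33 to 54 calls for NIL-BPH9 at 3 h, 46 to 69 at 6 h, 20 to 42 at 6 h against 3 h (20 without NIL-BPH9 6 h replicate 1, 21 without NIL-BPH9 3 h replicate 1), 22 to 34 for 9311 at 3 h, 7 to 25 at 6 h (25 without 9311 0 h replicate 3, 7 without 9311 6 h replicate 1), 7 to 11 at 6 h against 3 h, 31 to 46 and 22 to 38 for the difference of responses, 39 to 51, 53 to 71 and 65 to 85 for the lines at 0, 3 and 6 h, 2 to 3 separated pairs and a median position of 0.517 to 0.583.

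With the replicate number as a block, the counts were 44 for NIL-BPH9 at 3 h, 58 at 6 h, 31 for 9311 at 3 h, 13 at 6 h, 40 and 27 for the difference of responses, 44, 61 and 74 for the lines, and 28 and 8 at 6 h against 3 h in NIL-BPH9 and 9311. Leaving out the 3 NIL-BPH9 arrays at 0 h, an alternative chosen after seeing the data, gave 62 and 76 calls between the lines at 3 h and 6 h, 31 for NIL-BPH9 and 9 for 9311 at 6 h against 3 h. Over all alternatives no called direction reversed. Of values for single genes, 3621 kept their direction and side of the threshold, 298 lost the call and 5 moved beyond the replicate spread; the cause was not tested.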
